A study of Danio rerio with 12 samples.

Results

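The comparison below is between non-endothelial cells of zebrafish embryos at 48 hpf (hours post fertilization) and the same population at the later stages of 72 hpf and 6 dpf (days post fertilization). It rests on 4 of the 12 libraries of a small RNA sequencing series on how microRNAs in endothelial cells differ over development. They are the NoEndo libraries titled E1 and E2 at 48 hpf, called replicates 1 and 2 here, with replicate 2 of 72 hpf and replicate 1 of 6 dpf. The library titled NoEndo replicate 1 at 72 hpf was left out because its values are identical to those of an Endo library of that stage. All fish carried a transgene and were raised at 28 °C, and cells were freed with Liberase and sorted by flow cytometry. The labels name neither the transgene nor its promoter. They state no drug treatment and no strain, and give age only as the stage. For the NoEndo libraries the source, tissue and stain labels also read endothelial and GFP, so the population rests on the titles. The labels do not say whether replicates are separate clutches. The p-values here speak for the spread among these libraries alone, and the spread between the 48 hpf replicates may be technical. Where 72 hpf and 6 dpf are pooled as the later stages, the spread also includes the difference between those stages.

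MicroRNAs are short RNAs, cut from hairpin precursors, that guide Argonaute proteins to messenger RNAs and reduce the output of those messages. One or both arms of a hairpin, named 5p and 3p, can become the mature form. Many are tied to a tissue: miR-122 to the liver, miR-192 and miR-194 to the gut and its derivatives, miR-9 and miR-124 to the nervous system, miR-203 and miR-205 to the skin. In zebrafish, the miR-430 family is made from the onset of zygotic transcription and clears maternal messages. From 48 hpf to 6 dpf the zebrafish embryo becomes a feeding larva, with the gut, the liver and the retina coming into function.

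Reads on mature microRNAs numbered 657337 in replicate 1 and 2311070 in replicate 2 of the 48 hpf stage, 5028382 at 72 hpf and 1739921 at 6 dpf. Between 295 and 322 microRNAs had a count in each library, and 262 with at least 10 CPM (library counts scaled to a total of 1000000) in at least 2 of the 4 were tested. A count of 3 corresponds to 4.6, 1.30, 0.602 and 1.73 CPM in the same order of libraries, for counting error only. The endothelial marker miR-126a-3p stood between 107 and 502 CPM in these libraries and between 10803.5 and 64324 CPM in the 5 Endo libraries, with no overlap. The 48 hpf replicates differed from each other. Over the 262 microRNAs, replicate 1 correlated with replicate 2 at Pearson's r = 0.944 and with 72 hpf at r = 0.950, and 82 microRNAs (31.3%) lay more than 1 log2 unit apart between the replicates, against 49 (18.7%) between replicate 1 and 72 hpf. These are descriptions across microRNAs, which are not independent. Skin microRNAs held 25.5% of counts in replicate 1 and 7.30% in replicate 2, and neural microRNAs 7.18% and 12.7%. The sorted population holds many cell types, and fewer cells of a type cannot be told apart from less of a microRNA per cell.

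Between 48 hpf and the later stages, 9 microRNAs were higher and 1 was lower (edgeR's quasi-likelihood test with TMM scaling, Benjamini-Hochberg adjusted p under 0.05). That is 3.44% and 0.382% of those tested, and 50 passed an unadjusted p under 0.05. The 9 included miR-726, miR-729, the gut microRNA miR-459-3p, the liver microRNA miR-122 and the sensory miR-183-5p. The rest were the clustered pair miR-462 and miR-731, the brain microRNA miR-129-3p and the smooth muscle microRNA miR-145-5p. The single lower one was miR-219-5p, known from the developing nervous system and its myelinating cells. All 10 kept their direction under every alternative that gave them a value. With total counts in place of TMM, 0 passed and 18 had an unadjusted p under 0.05. With DESeq2's size factors, miR-459-3p alone passed, while the 10 differences moved by at most 0.0918 log2 units and the median prior degrees of freedom of the fit went from 62.1 to 6.01. With any 1 of the 4 libraries left out, 0 passed and between 13 and 85 had an unadjusted p under 0.05, but such a fit has 1 residual degree of freedom and its calls say little. Differences from such fits are therefore given with each microRNA. For miR-459-3p, miR-726 and miR-729 they exist only without a 48 hpf replicate, since without a later library these microRNAs do not pass the filter.

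**Figure D1:**
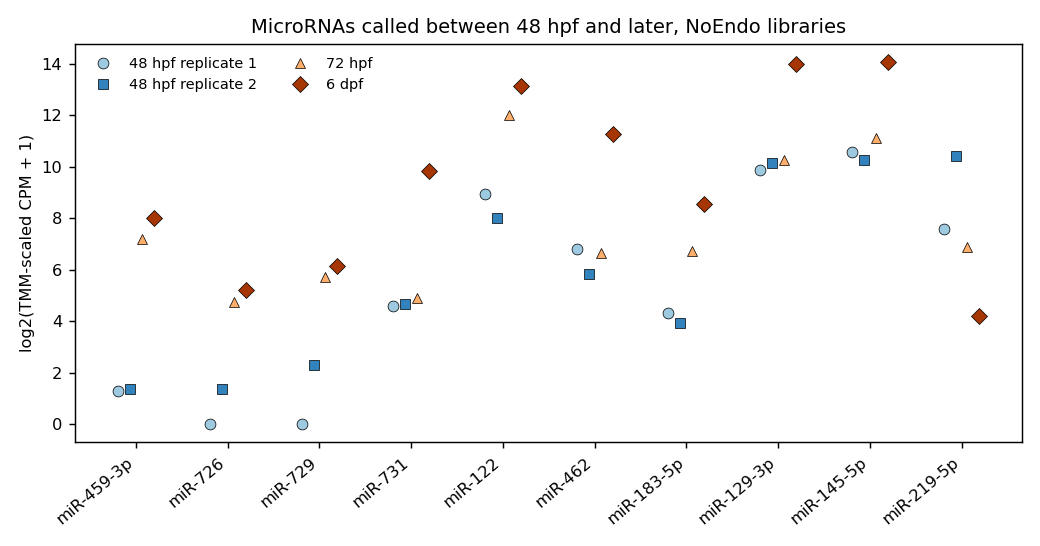
Level of each called microRNA in the 4 NoEndo libraries, as log2(TMM-scaled CPM + 1), with 1 point for each library and no error bar since each later stage is 1 library. For miR-459-3p, miR-726, miR-729, miR-122 and miR-183-5p both later libraries lie well above both at 48 hpf, while for miR-731, miR-462, miR-129-3p and miR-145-5p the 6 dpf library stands far above the other 3.

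Of the 9, 5 were already high at 72 hpf. The largest difference was that of miR-459-3p, a fish microRNA found in the gut, at position 1:1275399-1275420 on the plus strand in Zv9. It stood at 1.53 and 2.60 CPM at 48 hpf, on counts of 1 and 6, then at 156 CPM in the 72 hpf and 134 CPM in the 6 dpf library. Both later libraries were far above both earlier ones and close to each other. The difference was 6.98 ± 1.25 (log2, SE; 126-fold; edgeR adjusted p = 0.000136), and 6.00 (64.1-fold; adjusted p = 0.118) with total counts. It was 6.94 without replicate 1 at 48 hpf and 7.09 without replicate 2. MiR-459-3p passed the 10 CPM filter through the later libraries alone, and with no filter the edgeR adjusted p was 0.0316. In the RefSeq gene table of GRCz12tu, its hairpin gene mir459 lies within the span of runx1, a gene of blood formation.

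The liver microRNA miR-122, at 21:9416786-9416807 on the minus strand in Zv9, stood at 520 and 429 CPM at 48 hpf, 4437 CPM at 72 hpf and 4745 CPM at 6 dpf. The later pair was about level on this scale and lay well above the earlier pair. The difference was 4.14 ± 0.86 (log2, SE; 17.6-fold; edgeR adjusted p = 0.00136). It was 3.27 (9.67-fold; adjusted p = 0.538) with total counts and ran from 3.45 to 4.65 with 1 library left out. For miR-183-5p, of hair cells and photoreceptors, the values were 20.0 and 23.9 CPM at 48 hpf, 113 CPM at 72 hpf and 197 CPM at 6 dpf, a difference of 3.86 ± 1.01 (log2, SE; edgeR adjusted p = 0.0158). Again the groups did not overlap. The difference was 2.81 with total counts and ran from 2.63 to 4.50 with 1 library left out.

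The eye-list member miR-726 and miR-729, to which no list gives a tissue, were near the counting limit at 48 hpf. MiR-726 had counts of 0, 6, 136 and 33 in the order of the libraries, and stood at 27.3 CPM at 72 hpf and 19.1 CPM at 6 dpf. MiR-729 had counts of 0, 15, 274 and 64, with 54.9 and 37.0 CPM at the later stages. Both later libraries were higher in each case, and replicate 1 at 48 hpf, the shallowest library, had no read. The fitted differences were 4.68 ± 1.09 and 4.51 ± 1.14 (log2, SE; edgeR adjusted p = 0.00561 and 0.0121). They depend on how a count of 0 is handled: without replicate 2 they came to 9.15 and 10.1, and without replicate 1 to 4.24 and 3.92. Both microRNAs passed the 10 CPM filter through the later libraries alone, where they are high. With no filter neither was called (edgeR adjusted p = 0.340 for each), and with total counts the differences were 3.74 and 3.55.

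The other 4 were high at 6 dpf and near their 48 hpf level at 72 hpf. The pair miR-462 and miR-731 lies within 1 short stretch of chromosome 8 (8:26935261-26935282 and 8:26935491-26935514, plus strand, Zv9) and is known in zebrafish to respond to low oxygen and to interferon. MiR-462 stood at 117 and 91.6 CPM at 48 hpf, 107 CPM at 72 hpf and 1312 CPM at 6 dpf. MiR-731 stood at 24.6, 39.9, 30.7 and 484 CPM in the same order. For both, the 72 hpf CPM lay inside the range of the 48 hpf pair and the 6 dpf library alone was high; on TMM-scaled CPM, miR-731 at 72 hpf was just above that range. The differences were 3.98 ± 1.11 and 4.32 ± 1.12 (log2, SE; edgeR adjusted p = 0.0335 and 0.0178), 2.77 and 2.98 with total counts, and 0.27 and 0.21 without the 6 dpf library.

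MiR-129-3p, of neurons, stood at 1005 and 1886 CPM at 48 hpf, 1321 CPM at 72 hpf and 8645 CPM at 6 dpf. MiR-145-5p, of smooth muscle and pericytes, stood at 1641, 2059, 2377 and 9103 CPM. The 6 dpf library was again the high one, and the 72 hpf value of miR-129-3p fell inside the 48 hpf range on CPM and just above it on TMM-scaled CPM. Their differences were 3.08 ± 0.88 and 2.80 ± 0.84 (log2, SE; edgeR adjusted p = 0.0385 and 0.0474), 1.78 and 1.63 with total counts, and 0.17 and 0.63 without the 6 dpf library. Each has 2 copies in Zv9 whose reads cannot be told apart. The other arm, miR-145-3p, stood at 84.4, 145, 133 and 93.5 CPM, and the cluster neighbour miR-143 at 384, 892, 568 and 511 CPM. Neither was highest at 6 dpf on CPM, with differences of 0.85 ± 0.89 and 0.73 ± 0.90 (log2, SE). MiR-129-5p stood at 39.9, 133, 23.7 and 127 CPM and overlapped between the stages. MiR-129-1-3p, at 473, 1003, 629 and 2688 CPM, was highest at 6 dpf.

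MiR-219-5p, with 4 copies in Zv9, stood at 204 CPM in replicate 1 and 2295 CPM in replicate 2 at 48 hpf, 124 CPM at 72 hpf and 9.24 CPM at 6 dpf. The later values were below both earlier ones, but replicate 1 at 48 hpf was closer to 72 hpf than to its own replicate. The difference of -3.54 ± 1.07 (log2, SE; edgeR adjusted p = 0.0487) became -1.47 without replicate 2 at 48 hpf, the library with the larger share of neural microRNAs. The part of that share in the difference was not tested.

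Stage by stage, in a fit over the 10 usable libraries of both populations, fewer microRNAs were called at 72 hpf against 48 hpf than at 6 dpf against 48 hpf. At 72 hpf against 48 hpf, 3 of 282 microRNAs rose (1.06%) and 0 fell (0%; edgeR adjusted p under 0.05), with 12 and 2 at an unadjusted p under 0.05. The 3 were miR-459-3p, miR-122 and miR-192. At 6 dpf against 48 hpf, 42 rose (14.9%) and 12 fell (4.26%). The 42 include miR-459-3p, miR-726, miR-729, miR-193a-5p, miR-204-2-3p and miR-738. All of these were under 10 CPM in both NoEndo 48 hpf libraries, so within NoEndo only later libraries, where they are high, reached the filter's limit. With no filter, 33 rose and 14 fell. At 6 dpf against 72 hpf, 2 rose (0.709%), miR-129-3p and miR-731, and 1 fell (0.355%), miR-430a-3p. The number of calls is not a measure of size: between 72 hpf and 6 dpf, 138 of 262 microRNAs (52.7%) lay more than 1 log2 unit apart. Both later stages are single libraries, so each contrast borrows its spread from the replicated 48 hpf groups of both populations, with 2 residual degrees of freedom, and the contrasts share libraries. The calls at 6 dpf against 72 hpf set 1 library against 1, and with the NoEndo libraries alone, with DESeq2's size factors or with no filter they were 0 and 0. The numbers of increases depended on the scaling: with total counts, 0 rose in each contrast, 2 fell at 6 dpf against 48 hpf and 2 at 6 dpf against 72 hpf. At 6 dpf against 48 hpf, those 2 were miR-430a-3p and miR-430b-3p.

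The question whether 72 hpf lies between 48 hpf and 6 dpf was taken up per microRNA on log2(TMM-scaled CPM + 1). Of the 76 microRNAs at least 1 unit higher at 6 dpf than the 48 hpf mean, 59 (77.6%) had a 72 hpf value in between, 6 lay beyond 6 dpf and 11 on the other side of 48 hpf. At 72 hpf these 76 had covered a median fraction of 0.31 of the way to 6 dpf (quartiles 0.10 and 0.60), and 50 were nearer to 48 hpf. Of the 89 at least 1 unit lower, 71 (79.8%) lay in between, 2 beyond 6 dpf and 16 on the other side, with a median fraction of 0.28 and 72 nearer to 48 hpf. The 72 hpf value was inside the range of the 48 hpf pair for 14 of the 76 and 24 of the 89. Against replicate 2 alone, the median fraction was 0.45 for increases and 0.37 for decreases, and against replicate 1 alone 0.30 and 0.21. These are counts over 1 library a stage, with no test. The microRNAs were picked for a gap between 48 hpf and 6 dpf, and such a pick by itself favours a 72 hpf value in between. For a gap of at least 2 units, 86.4% of increases and 91.7% of decreases lay in between. The shares therefore describe these libraries and cannot show an order in time.

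**Figure D2:**
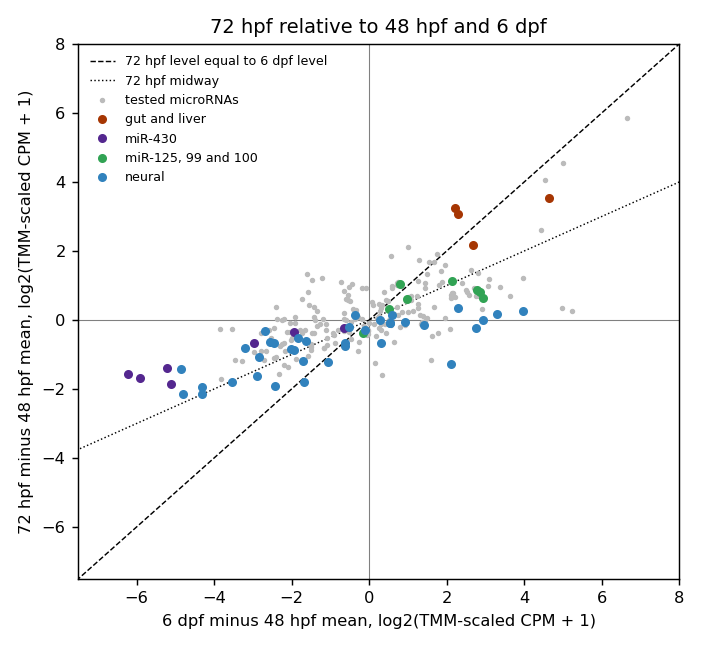
Each of the 262 tested microRNAs by its 6 dpf level (x) and its 72 hpf level (y), both as differences from the 48 hpf mean on log2(TMM-scaled CPM + 1). Points between the horizontal axis and the dashed line have a 72 hpf value between the other stages; most lie below the dotted midway line in size, while the 4 gut and liver microRNAs lie above it.

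Split by steps of at least 1 log2 unit, 95 of the 262 (36.3%) moved in neither interval. Another 44 (16.8%) were level to 72 hpf and higher at 6 dpf, among them miR-92a-3p, miR-125b-5p, miR-125c-5p, miR-214, miR-145-5p, miR-129-3p, miR-462 and miR-731. A further 57 (21.8%) were level to 72 hpf and lower at 6 dpf. The 20 (7.63%) that were higher at 72 hpf and then level held miR-459-3p, miR-726 and miR-729. They also held 7 of the 13 skin microRNAs, miR-205-5p and miR-203b-3p among them. The step to 72 hpf starts from the mean of the 48 hpf replicates, which differed in their share of skin microRNAs. On TMM-scaled CPM, miR-203b-3p stood at 68393 and 7459 at 48 hpf and at 67698 at 72 hpf, not above replicate 1. MiR-205-5p stood at 136915, 30100 and 173519 in the same order. The 17 (6.49%) that were lower at each step held miR-9-5p, miR-430a-3p, miR-430b-3p, miR-18c, miR-20a-5p, miR-153b-3p and miR-219-5p. With total counts, 19 (7.25%) were level and then higher and 91 (34.7%) level and then lower, so the balance of these classes depends on the scaling.

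For lists of microRNAs tied to a tissue or family, the text gives how many members did not overlap between the stages and the median difference. Over all 262, 68 (26%) had both later libraries above both at 48 hpf, and 66 (25.2%) had both below, on TMM-scaled CPM. The median difference over all was 0.03 log2 units, and -0.68 with total counts. Unscaled, the split was 29 above (11.1%) and 105 below (40.1%). The list counts are on TMM-scaled CPM, and several lists have fewer members above on CPM.

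**Figure D3:**
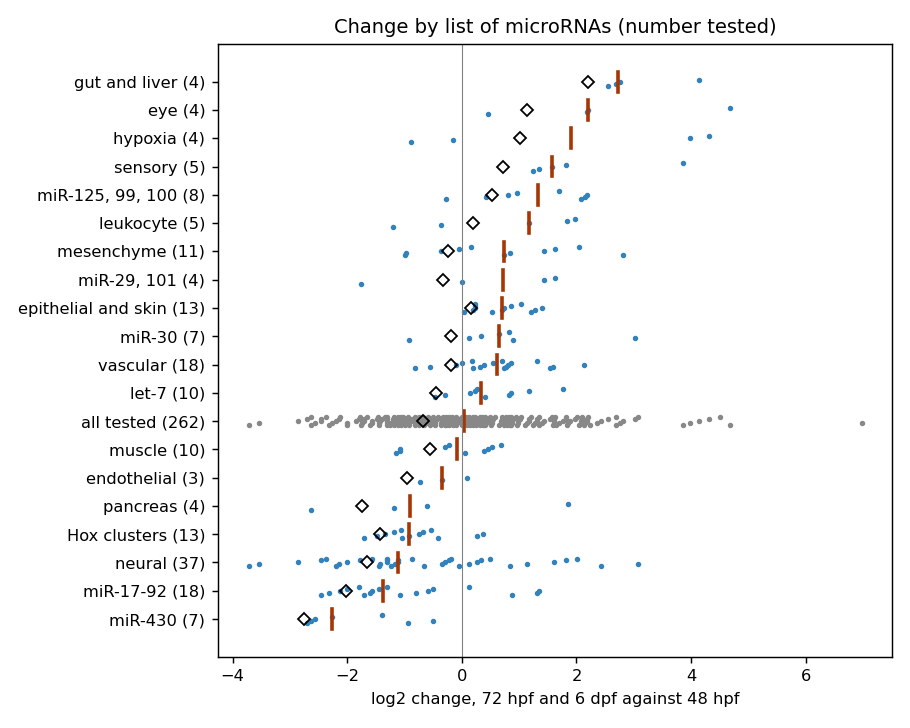
Differences between 48 hpf and the later stages for each list with at least 3 tested members (number in brackets), with 1 point for each microRNA, a bar at the median with TMM scaling and an open diamond at the median with total counts. The gut and liver list has the highest median, 2.72, and the miR-430 list the lowest, -2.27; the diamonds lie below the bars in every list.

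All 4 gut and liver microRNAs (miR-122, miR-192, miR-194a and miR-194b) were above without overlap, with a median of 2.72, and of 2.20 with total counts. The gut microRNA miR-192 stood at 714 and 564 CPM at 48 hpf, 4900 CPM at 72 hpf and 1182 CPM at 6 dpf. It was highest at 72 hpf, unlike miR-122, and its difference of 2.76 ± 0.87 (log2, SE) missed the threshold over the pooled later stages (edgeR adjusted p = 0.0541) and passed it at 72 hpf (adjusted p = 0.0391). This rise of miR-192 at 72 hpf rests on 1 library. It missed the threshold with total counts (2.94, log2) and with DESeq2's size factors. The neighbour of miR-192 on chromosome 10, miR-194a, stood at 147, 122, 924 and 264 CPM, with the same order of libraries. The list held 0.140% and 0.112% of counts in the 48 hpf replicates, 1.03% in the 72 hpf and 0.622% in the 6 dpf library.

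Of the 5 tested microRNAs of the miR-183 sensory cluster, 4 were above without overlap on TMM-scaled CPM, with a median of 1.57, and of 0.72 with total counts. On CPM, miR-182-3p (58.3, 127, 255 and 50.8) and miR-182-5p (6.14, 23.9, 33.9 and 16.7) overlapped. MiR-183-3p stood at 499, 546, 1602 and 695 CPM, and miR-96-5p at 93.6, 706, 896 and 204 CPM. The first was highest at 72 hpf; the second differed as much between the 48 hpf replicates as between stages, and neither passed the test. The eye list had 3 of 4 above, with a median of 2.19, and of 1.14 with total counts. Of these 3, miR-726 passed the 10 CPM filter through the later libraries alone. MiR-204-3p, at 10.7, 17.8, 14.0 and 45.0 CPM, overlapped on CPM. The lens and retina microRNA miR-184 stood at 8131, 6707, 15224 and 20618 CPM, and rose at 6 dpf against 48 hpf (3.09, log2; edgeR adjusted p = 0.0126; 1.47 with total counts). The pigment epithelium and lens microRNA miR-204-5p, at 40721, 39359, 29086 and 30344 CPM, was lower later as a share and reads 0.45 ± 0.92 (log2, SE) with TMM scaling, so its direction depends on the scaling.

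The miR-125, miR-99 and miR-100 list had 7 of 8 above, with a median of 1.33, and of 0.53 with total counts. Of those 7, miR-99, miR-125b-1-3p and miR-125b-2-3p overlapped on CPM. The microRNAs of this list, transcribed with let-7 members in several clusters, are known to increase as cells differentiate. They held 10.4% and 11.4% of counts in the 48 hpf replicates, 15.2% in the 72 hpf and 29.8% in the 6 dpf library. The main part was miR-125b-5p, with 60092 and 61689 CPM at 48 hpf, 88756 CPM at 72 hpf and 166668 CPM at 6 dpf. On CPM the 48 hpf replicates were close and each later stage lay above the one before; on TMM-scaled CPM the replicates stood at 56456 and 37215. It missed the threshold over the pooled later stages (2.09 ± 1.12, log2, SE; edgeR adjusted p = 0.30) and rose at 6 dpf against 48 hpf (3.11, log2; adjusted p = 0.0199; 1.45 with total counts). With DESeq2's size factors this rise of miR-125b-5p missed the threshold. In the let-7 list, 3 of 10 were above and 0 below, with a median of 0.33, and of -0.44 with total counts. Those 3, let-7e, let-7i and let-7j, overlapped on CPM.

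**Figure D4:**
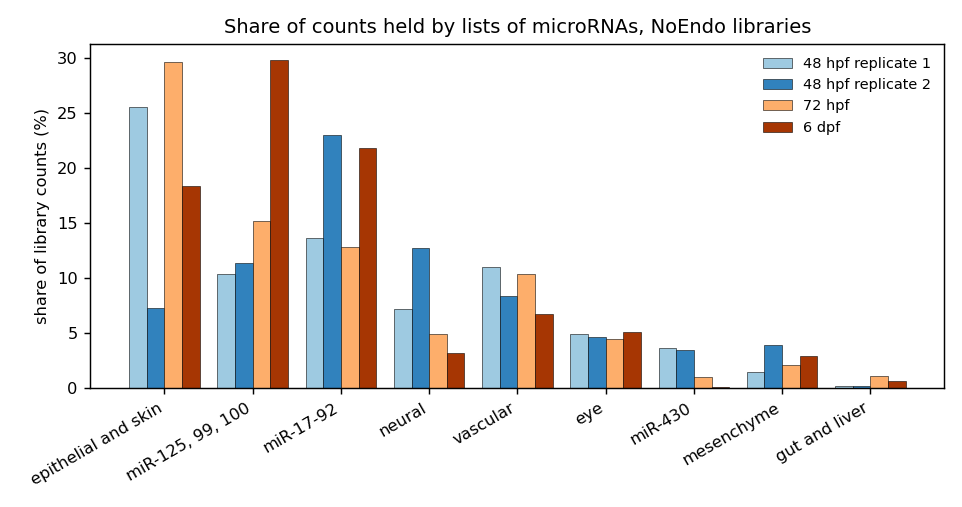
Share of each NoEndo library's counts held by 9 lists of microRNAs, with 1 bar for each library. The miR-125, 99, 100 share grows from 10.4% to 29.8%, the miR-430 share shrinks from 3.58% to 0.0480%, and the skin and miR-17-92 shares differ as much between the 48 hpf replicates as between stages.

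All 13 tested skin and epithelial microRNAs had a positive difference with TMM scaling and 8 of them with total counts. On TMM-scaled CPM, 5 of the 13 were without overlap. The median was 0.71, and 0.15 with total counts. Of those 5, miR-200b-5p alone did not overlap on CPM. MiR-205-5p, of the basal epidermis, stood at 145733 and 49895 CPM at 48 hpf, 185676 CPM at 72 hpf and 123326 CPM at 6 dpf. MiR-203b-3p, of the differentiating epidermis, stood at 72798, 12365, 72441 and 46189 CPM. In both, replicate 2 at 48 hpf is the low library and the other 3 are near each other, and neither passed the test (edgeR adjusted p = 0.570 and 0.627).

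Among mesenchymal microRNAs, 5 of 11 were above and 1 below, with a median of 0.73, and of -0.24 with total counts. Of those 5, miR-145-5p alone did not overlap on CPM. MiR-214 stood at 3134, 6962, 6075 and 12576 CPM and rose at 6 dpf against 48 hpf (3.11, log2; edgeR adjusted p = 0.0102; 1.32 with total counts). MiR-199-5p has 4 copies in Zv9, of which only the copy on chromosome 20 lies beside miR-214. Summed over these copies, miR-199-5p stood at 4918, 20952, 7613 and 5008 CPM. Replicate 2 at 48 hpf was the high library, and the difference was -0.06 ± 0.77 (log2, SE). In the pancreas list, the endocrine miR-375 stood at 1644, 1610, 2739 and 3443 CPM and rose at 6 dpf against 48 hpf (2.73, log2; adjusted p = 0.0126; 1.08 with total counts). That list had 1 of 4 above and 0 below, with a median of -0.90, and of -1.75 with total counts. MiR-375 was its only member with a positive difference, against -1.19 for miR-216a and -0.60 for miR-217 (log2). The acinar miR-216b stood at 212, 2947, 214 and 62.9 CPM, so replicate 2 at 48 hpf alone was high. Muscle microRNAs had 1 of 10 above and 3 below, with a median of -0.09 that changed sign under 6 of the alternatives. Among the 3 were miR-133a-2-5p and miR-133a-5p, which have the same counts. The 1 above, miR-133a-3p, overlapped on CPM.

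The low-oxygen list was split. Besides miR-462 and miR-731 it holds miR-210-3p, induced by hypoxia in vertebrates, which stood at 602, 1502, 627 and 110 CPM and so was lowest at 6 dpf. The list of other vascular microRNAs had 8 of 18 above and 0 below, with a median of 0.62, and of -0.19 with total counts. Of those 8, only miR-23a-3-5p, miR-23a-5p and miR-27b-5p did not overlap on CPM. The miR-30 family, broadly expressed, had 2 of 7 above and 0 below, with a median of 0.64, and of -0.18 with total counts. Its member miR-30c-3p stood at 304, 177, 436 and 1463 CPM and rose at 6 dpf against 48 hpf (4.17, log2; edgeR adjusted p = 0.0126; 2.61 with total counts). With DESeq2's size factors this rise of miR-30c-3p missed the threshold. MiR-30d, the other of the 2 above, overlapped on CPM. The miR-29 and miR-101 list had 2 of 4 above and 0 below. Those 2, miR-29a and miR-29b, are also counted among the mesenchymal microRNAs, so they are not a separate result. The 3 endothelial entries overlapped between the stages, and miR-126a-3p stood at 407, 414, 502 and 107 CPM.

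Blood microRNAs were scarce. The leukocyte list held between 0.0820% and 0.141% of counts, with 3 of 5 above and 1 below. The lymphoid miR-150 stood at 330, 267, 439 and 666 CPM and was higher in both later libraries. MiR-146a and miR-146b, also above, overlapped on CPM. The 1 below was miR-155, of activated leukocytes, at 39.9, 90.3, 26.3 and 8.08 CPM. The myeloid miR-223 stood at 712, 767, 197 and 368 CPM, lower in both later libraries on CPM, but its groups overlapped on TMM-scaled CPM. The erythroid miR-451 stood at 485 and 1571 CPM at 48 hpf, 408 CPM at 72 hpf and 124 CPM at 6 dpf, with both later values below both earlier ones.

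On the falling side, 6 of the 7 tested miR-430 members were below without overlap, with a median of -2.27, and of -2.76 with total counts. MiR-430b-3p stood at 25470 and 25045 CPM at 48 hpf, 6372 CPM at 72 hpf and 166 CPM at 6 dpf. MiR-430a-3p stood at 8470, 7730, 2186 and 42.7 CPM. On CPM the replicates are close, 72 hpf lies in between, and 6 dpf is far below. Pooling the later stages, the differences were -2.64 ± 0.94 and -2.57 ± 0.92 (log2, SE), past no threshold (edgeR adjusted p = 0.115 for each). At 6 dpf against 48 hpf, both fell (-5.60 and -5.93, log2; adjusted p = 0.00542 and 0.00386). The reads of miR-430a-3p and miR-430b-3p were summed over 18 and 20 copies in Zv9, nearly all in 1 tandem array on chromosome 4. The family held 3.58% and 3.46% of counts in the 48 hpf replicates, 0.966% in the 72 hpf and 0.0480% in the 6 dpf library.

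In the neural list, 20 of 37 were below and 2 above, 1 passed the test in each direction, and the median was -1.11, and -1.66 with total counts. MiR-9-5p, of neural progenitors, stood at 19993 and 39444 CPM at 48 hpf, 7312 CPM at 72 hpf and 1512 CPM at 6 dpf. MiR-153b-3p, of neurons, stood at 493, 2030, 208 and 19.6 CPM. Both later libraries were below both earlier ones in each, and replicate 2 at 48 hpf was the highest. Neither passed over the pooled later stages (edgeR adjusted p = 0.148 and 0.0990), and both fell at 6 dpf against 48 hpf (-2.52 and -4.12, log2; adjusted p = 0.0387 for each). The list was not of one direction: over the pooled later stages miR-129-3p was called higher. The neuronal miR-124-3p stood at 30.7, 105, 38.7 and 156 CPM, highest at 6 dpf. In the test of 6 dpf against 48 hpf, 4 of the 37 rose and 4 fell (edgeR adjusted p under 0.05). Over all 282 microRNAs of that fit, 42 rose (14.9%) and 12 fell (4.26%), so rises were not more frequent in the list than over all. Those of the list that rose were miR-129-3p, miR-129-1-3p, miR-132-3p and miR-181a-2-3p. Those of the list that fell were miR-9-5p, miR-9-3p, miR-9-4-3p and miR-153b-3p. With total counts none of these passed.

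The miR-17-92 clusters, whose products favour cell division, had 12 of 18 below and 1 above, with a median of -1.37. MiR-18c stood at 3311, 8943, 1336 and 154 CPM, and miR-20a-5p at 2761, 9665, 1880 and 187 CPM. Both were highest in replicate 2 at 48 hpf and lowest at 6 dpf. Both fell at 6 dpf against 48 hpf (-3.49 and -3.19, log2, edgeR adjusted p = 0.0126 and 0.0387). With total counts both missed the threshold, at -5.32 and -5.06 (log2), and with DESeq2's size factors miR-20a-5p missed it. MiR-92a-3p, cut from the same transcript as miR-20a-5p, went the other way, with 93840, 141617, 97672 and 178348 CPM, and rose at 6 dpf (2.32, log2; adjusted p = 0.0391). With total counts that difference was 0.60 (adjusted p = 0.202), and with DESeq2's size factors the adjusted p was 0.0773. As a share its 48 hpf replicates differ by more than replicate 2 differs from 6 dpf. The Hox cluster microRNAs, of axial patterning, had 7 of 13 below and 1 above, with a median of -0.93.

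To describe microRNAs that appear or fade, a limit of 10 CPM in every library was used. MiR-459-3p, miR-726 and miR-729, the 3 described above, were under it in both 48 hpf libraries and over it in both later ones. Another 3, miR-193a-5p, miR-204-2-3p and miR-738, were over it at 6 dpf alone, with 26.6, 16.7 and 67.6 CPM. MiR-7148-5p and miR-96-3p were over it at 72 hpf alone, at 12.8 and 11.2 CPM, barely past it. Over the limit in both 48 hpf libraries and under it in both later ones were miR-133a-2-5p, miR-133a-5p, miR-10b-2-3p and miR-20a-3p. The first pair starts at the same base in Zv9 and has the same counts, so these names may count the same product. None of these 4 stood above 21.7 CPM in any library.

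A larger set of 25 was over the limit at 48 hpf and 72 hpf and under it at 6 dpf. It held miR-219-5p, miR-430c-3p, miR-430c-5p and 4 products of the miR-153 hairpins, besides miR-301a, miR-301c-3p and miR-18b-5p. MiR-430c-3p stood at 69.1, 128, 20.3 and 0.577 CPM and miR-153c-3p at 20.0, 331, 14.0 and 1.15 CPM. At 6 dpf these are 1 and 2 reads, under the level of 3 counts. With TMM-scaled CPM in place of CPM, the 25 became 10, all of them among the 25. On that scale miR-219-5p, miR-301a, miR-301c-3p, miR-18b-5p and miR-153b-5p stood over the limit at 6 dpf and so are not among the 10.

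By position, tested microRNAs within 10 kb of each other on a strand formed 106 clusters, arms of a hairpin included, and in 62 of them all members had a difference of 1 sign. Of 60 hairpins with both arms tested, 40 had arms of 1 sign, with Pearson's r = 0.58 between arms as a description. Arms of a hairpin share the precursor, and copies share reads. Clusters at several copies, such as those of miR-9-5p with miR-9-3p, repeat the same summed values and are not separate. Over all 262 tested, 137 had a positive difference, and no test was made of these counts. The arms of miR-92a parted: the 3p arm had the levels given above, while its 5p arm stood at 38.4, 65.1, 21.3 and 16.2 CPM, lower in both later libraries.

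For comparison, the Endo libraries over the same stages (2 at 48 hpf, 1 at 72 hpf and 1 at 6 dpf) were fitted together with the NoEndo libraries. For 0 of 274 microRNAs (0%) did the difference from 48 hpf to later differ between the populations (edgeR, interaction term, lowest adjusted p = 0.9996), with 1 at an unadjusted p under 0.05. This does not show that the populations act alike. In this fit miR-122 read 4.44 in NoEndo and 4.26 in Endo, miR-145-5p 3.15 and 2.95, and miR-430b-3p -2.45 and -3.04 (log2). MiR-731 read 4.68 and 1.73 and miR-459-3p 7.27 and 4.87 (log2). The values were close in the first 3 and larger in NoEndo in the last pair, with no test passed.

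**Figure D5:**
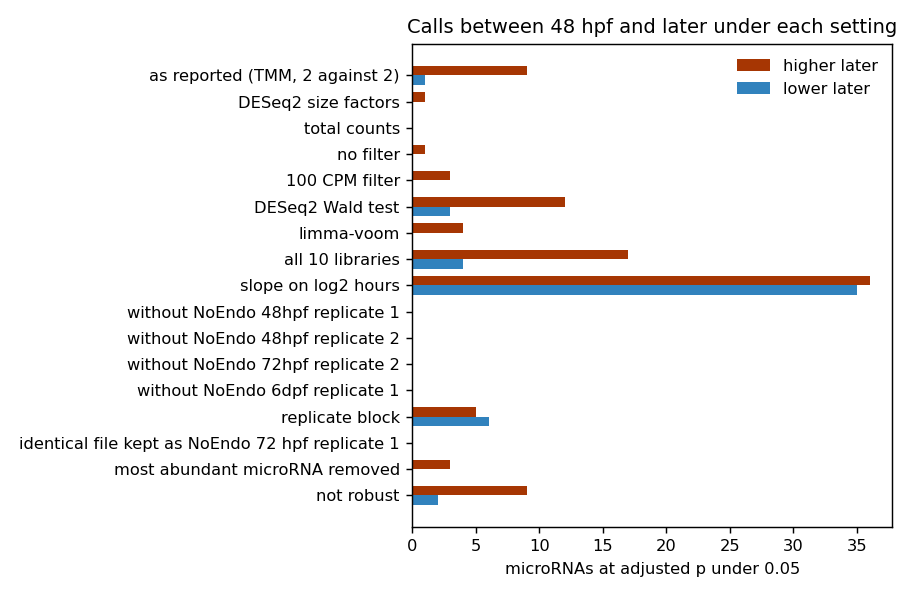
Number of microRNAs at an adjusted p under 0.05 between 48 hpf and the later stages, higher (upper bar) and lower (lower bar), for the reported test and each alternative. The reported test has 9 and 1, the fit on a slope over hours 36 and 35, and each fit without 1 library 0 and 0.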

How the data were processed

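Groups, stages and replicate numbers follow the sample titles. The titles' E1 and E2 marks differ from those in some file names. STAR 2.3.0 and the build Zv9 are named in the submitters' processing notes. Trimming, annotation and counting program: not given in the sources used here. Per the file headers, the deposited read counts are reads per genomic copy. The deposited expected counts (multi-mapping adjusted) divide a read over its copies. The deposited signal columns, read counts scaled to depth, served only to recover library totals.

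Expected counts of the sense files were summed by name and rounded. They were tested with edgeR 4.0.16 (robust quasi-likelihood, TMM, R 4.3.3) and Benjamini-Hochberg adjustment at 0.05. TMM factors were 1.06 and 1.66 (48 hpf), 1.07 (72 hpf) and 0.529 (6 dpf). Each SE was taken as log2 difference divided by root F. The 2 against 2 fit has 2 residual degrees of freedom. Stage contrasts used 10 libraries and the population term 8. Scripts were tested on simulated data. Limma 3.58.1 and DESeq2 1.42.0 served as alternatives. Near-identical microRNAs share reads. Named microRNAs are those called, the 10 most abundant a stage, those that appear or fade, and list members. Of the called, miR-183-5p, miR-459-3p, miR-462, miR-726 and miR-729 fall outside the part of that rule on called microRNAs. Members and lists were chosen with earlier results of these data known. No mature sequence table was used, so sequences are not printed here.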

Additional observations from a re-analysis of the deposited data

Results flagged for a closer look

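Reads antisense to mature microRNAs, which no comparison uses, lay above the limit that a count of 0 allows in 3 of the 4 libraries. Replicate 2 at 48 hpf had 6 such reads, 72 hpf had 9 and 6 dpf had 7, against 1 in replicate 1 at 48 hpf. They fell on few microRNAs, among them miR-10d-5p with 3 reads at 72 hpf and 3 at 6 dpf.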

How the results depend on the processing

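The pooled test rests on 4 libraries with 2 residual degrees of freedom, and its number of calls differs between settings. Total counts shift the median of all microRNAs by -0.71; DESeq2 size factors shift it by -0.0068, with a median prior degrees of freedom of 6.01 against 62.1. Calls between 48 hpf and later, 9 higher and 1 lower, became 1 and 0 with DESeq2 size factors, 0 and 0 with total counts, 1 and 0 with no filter, 3 and 0 with a 100 CPM filter, 4 and 0 with limma-voom, and 12 and 3 with the DESeq2 Wald test. They were 17 and 4 with all 10 libraries, 36 and 35 as a slope on log2 hours, 0 and 0 with the identical file kept, 3 and 0 without the most abundant microRNA, and 9 and 2 without the robust option, which was chosen after seeing the data. Leaving out each library gave 0 to 0 higher and 0 to 0 lower, in fits with 1 residual degree of freedom.

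At 72 hpf against 48 hpf, the 3 increases became 0 with DESeq2 size factors, 0 with total counts and 1 with the NoEndo libraries alone; leaving out a 48 hpf replicate gave up to 6. At 6 dpf against 48 hpf, the 42 increases became 18 with DESeq2 size factors, 0 with total counts and 20 with NoEndo alone; the 12 decreases became 2 with total counts and 41 with the Wald test, with 15 to 25 when a 48 hpf replicate was left out. At 6 dpf against 72 hpf, calls were 0 and 0 with DESeq2 size factors, with NoEndo alone and with no filter, 0 and 2 with total counts, and 9 and 14 with the Wald test; without a 48 hpf replicate they were 6 higher and 2 to 3 lower. The numbers with 72 hpf in between, 59 and 71, became 22 and 123 with total counts and 38 and 44 for differences of at least 2.

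Those over 10 CPM at 6 dpf alone, 3, became 1 at 5 CPM, 5 at 50 CPM and 5 with TMM-scaled CPM, and those at 72 hpf alone became 0 at 5 CPM. Those fading by 72 hpf, 4, became 7 at 50 CPM and 2 with TMM-scaled CPM; those fading by 6 dpf, 25, became 40 and 10. None of the 4 was among the 3 found at 5 CPM or the 7 at 50 CPM, and 6 of the 25 were among the 40.

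Among 33 named microRNAs, 383 values kept direction and side of the threshold, 99 lost the call, 27 gained it and 9 reversed. The 383 include microRNAs that were not called and stayed so. All 99 losses fell on the called microRNAs, from 5 of 14 alternatives for miR-459-3p to 13 of 16 for miR-145-5p. MiR-204-5p reversed with total counts (-0.43), and with 1 library left out it ran from -0.22 (no 6 dpf) to 0.91; miR-92b-3p ran from -0.31 (no 6 dpf) to 2.08. MiR-199-5p, -0.06 as reported, read 0.18 with limma-voom, 0.23 with all 10 libraries, 0.077 as a slope and 0.10 with the replicate block; with 1 library left out it ran from -0.62 to 0.88, the latter without replicate 2 at 48 hpf, and read 0.065 without 72 hpf. The cause was not tested in any of these.

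A fit with the replicate number as a block called 5 higher and 6 lower, 6 of them shared with the reported 10, and 0 for the population difference. Among the later libraries, replicate 1 is 6 dpf and replicate 2 is 72 hpf, so there the block cannot be told apart from stage. At 48 hpf, the replicate 1 minus replicate 2 differences of Endo and NoEndo correlated at 0.655, but with 1 pair of numbers the libraries share only a number.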
